A study of Homo sapiens with 6 samples.

Results

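The cytosolic ribosomal protein genes encode the proteins of the large (RPL) and small (RPS) subunits of the ribosome that works in the cytoplasm. They were taken by name from the deposited table, as *RPL* or *RPS* followed by a number with an optional A, X or Y1, together with *RPLP0*, *RPLP1*, *RPLP2* and *RPSA*. The S6 kinases and the paralogs whose names end in L were left out. This gave 78 of the 19225 listed genes, 46 of the large and 32 of the small subunit. Of the 78, 77 were above 0 and *RPS4Y1* was listed at 0 in all 6 libraries. All 77 also passed the filter for testing, a mean of at least 0.5 FPKM.

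The cells were SW480, an established colon cancer line with mutant p53, and all 6 libraries came from plasmid-transfected cells. The labels give 3 libraries, numbered as replicates 1 to 3, as control, and 3 more with the same numbers came from cells transfected transiently with a plasmid for MDM4, a partner of MDM2 in holding p53 down. The labels name the latter group "exercised", and since no other group stands beside the control it was taken to be the MDM4 group. What plasmid the control cells received is not given in the sources used here. The columns of the table carry a letter, G or M, and a number, and were read as control and MDM4. Libraries were made from oligo(dT)-selected mRNA and run on an Illumina HiSeq2000, and expression was deposited as FPKM, in which reads are divided by gene length and library total. Values of the 3 libraries of a group are given in the order of their replicate numbers.

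*MDM4* was at 6.35, 7.09 and 5.13 FPKM in control cells and at 188, 185 and 56.3 FPKM in MDM4 cells. The groups did not overlap, and MDM4 replicate 3 held the lowest level of its group. The difference had an adjusted p of 4.77e-05 in limma when the replicate number was a block and of 0.161 when it was not. Between 32923184 and 44563639 reads per library lay on listed genes. Nothing in the labels says that the replicates came from separate cultures, so p-values measure the spread between these libraries, which may be technical.

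Each ribosome needs its proteins in fixed proportion, and cells make them from messages that are among the most abundant of growing cells. These messages begin with a run of pyrimidines, the 5′ TOP motif, through which mTORC1 and LARP1 set their translation, while the assembly of the subunits needs a separate set of nucleolar factors. When assembly fails, free RPL5 and RPL11 bind MDM2 together with 5S rRNA and keep it from p53, which ties ribosome production to the MDM2 and MDM4 pair. Whether MDM4 altered the messages for these proteins was asked in cells whose p53 is mutant.

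The bases around the transcript start are shown for the members of the ribosomal stalk and for others that carry results further on, because the pyrimidine run lies there. Each sequence runs 5′ to 3′ on the strand of the gene, with 25 bases before and 25 bases from the annotated start onwards, taken from RefSeq on GRCh38.p14. Capitals mark a run of C and T of at least 6 bases that begins with C at most 10 bases from the start.
RPLP0: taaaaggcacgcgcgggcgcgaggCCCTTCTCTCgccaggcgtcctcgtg
RPLP1: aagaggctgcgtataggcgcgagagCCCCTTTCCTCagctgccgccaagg
RPLP2: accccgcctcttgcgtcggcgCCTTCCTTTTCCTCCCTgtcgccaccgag
RPL12: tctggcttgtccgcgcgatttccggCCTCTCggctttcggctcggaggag
RPS6: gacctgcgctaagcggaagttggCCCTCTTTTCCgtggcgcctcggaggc
RPL39: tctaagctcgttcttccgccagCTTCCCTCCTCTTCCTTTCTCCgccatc
RPL35: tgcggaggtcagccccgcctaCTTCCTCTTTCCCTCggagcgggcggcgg
RPS21: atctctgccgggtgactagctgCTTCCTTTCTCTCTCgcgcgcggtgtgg
RPS28: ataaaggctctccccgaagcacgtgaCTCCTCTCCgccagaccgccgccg
RPL11: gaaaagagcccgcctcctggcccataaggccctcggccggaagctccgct
RPS4X: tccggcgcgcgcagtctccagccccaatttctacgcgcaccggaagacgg

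A start window was at hand for 63 of the 78 genes, and 51 of them (81%) held such a run. Among the 14465 listed coding genes with a window, 3020 (20.9%) held one. The run had a median length of 11 bases, from 6 to 23. Those of *RPLP1* and *RPL12* began at the annotated start itself, while *RPL11* and *RPS4X* had no run by this rule in the annotated window. Only the strand of the transcript was searched, and a match is a description of letters near an annotated start.

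Ribosomal protein messages were among the most abundant of SW480 cells. The members had a median level of 563 FPKM over the 6 libraries, against 11.2 FPKM for all 12884 genes tested, and 47 of the 100 highest genes of the table were members. Together they took 11.6%, 11.3% and 11.8% of all FPKM in control cells and 11.4%, 11.5% and 11.6% in MDM4 replicates 1 to 3. The mean share was 11.6% ± 0.243 (SD, n = 3) for control and 11.5% ± 0.0870 (SD, n = 3) for MDM4, and the groups overlapped. The difference of -0.0657 percentage points had p = 0.7 in an exact two-sided permutation test, which cannot go below 0.1 with 3 libraries per group. By reads in place of FPKM the members took 3.91% to 4.18% of a library.

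*RPS2*, a small subunit protein, was the highest member in every library. Its level was 2094, 1908 and 2125 FPKM in control cells and 1948, 2056 and 2018 FPKM in MDM4 cells. The next was *RPLP1*, an acidic protein of the stalk that recruits translation factors, with 1384 to 1526 FPKM, which does not overlap with *RPS2*. *RPL8* (1228 to 1369 FPKM), *RPL13A* (1177 to 1385 FPKM), *RPL3* (1158 to 1343 FPKM) and *RPLP0* (1114 to 1243 FPKM) followed, and the ranges of these neighbours overlapped. *RPLP0* is the base on which RPLP1 and RPLP2 stand, and RPL3 lies near the peptidyl transferase center. The median level was 527 FPKM over the 46 members of the large subunit and 624 FPKM over the 31 tested members of the small subunit.

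**Figure D1:**
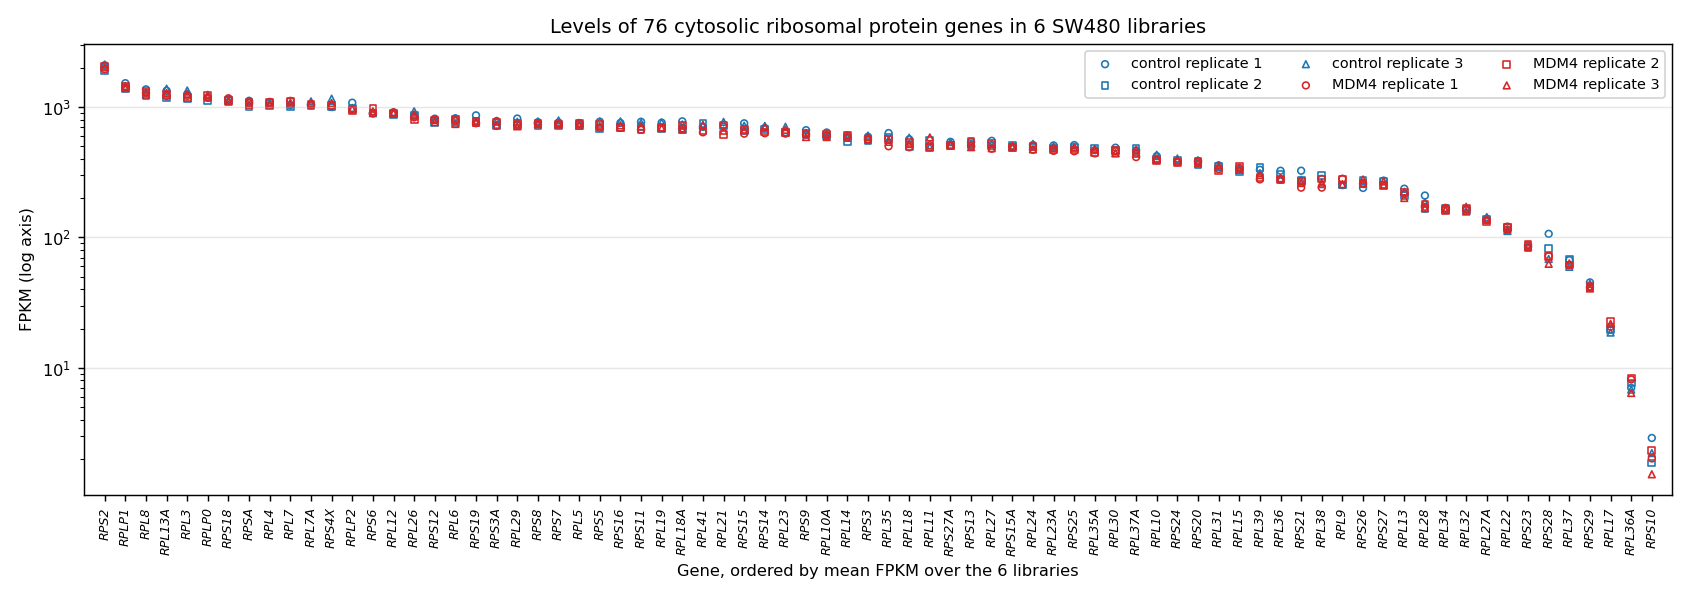
FPKM (log axis) of 76 members in the 6 libraries, ordered by their mean, with circles, squares and triangles for replicates 1 to 3 in blue (control) and red (MDM4). Libraries lie close together at nearly all members, 69 members lie at 100 FPKM or more, and the row ends with *RPL17*, *RPL36A* and *RPS10*.

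The low end of the order held members that the annotation places on top of another gene. *RPS10* was at 1.52 to 2.89 FPKM (35 to 90 reads per library), *RPL36A* at 6.40 to 8.35 FPKM (343 to 508 reads) and *RPL17* at 18.6 to 22.6 FPKM (576 to 719 reads). In GENCODE release 29 each of these overlaps another coding gene on the same strand. *RPS10* (chr6:34417454-34426125) shares bases with *RPS10-NUDT3*, *RPL36A* (chrX:101390824-101396154) with *RPL36A-HNRNPH2* and *RPL17* (chr18:49488453-49492523) with *RPL17-C18orf32*. Another 5 members whose span overlaps that of a coding gene on the same strand had means of 117 to 862 FPKM. The part of overlap in the low values was not tested, and how the authors counted reads that fit more than 1 gene is not given in the sources used here. Next in the order came *RPS29* with 40.6 to 45.2 FPKM and *RPL37* with 59.5 to 67.8 FPKM.

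Levels are per length, and so depend on the length the authors used. The length implied by the values of a gene had a median of 741 bases over the members and ran from 351 bases for *RPS27* to 4879 bases for *RPL27A*. For 9 members it was over 1.5 times the median length of the annotated transcripts. On the FPKM scale the 90th percentile of the members' levels was 10.3 times the 10th, and on a scale of reads scaled to the coding length and the library in the same way it was 4.38 times. *RPL41*, which encodes one of the shortest known proteins, was at 527 bases of implied length and ranked in the middle by FPKM (641 to 749), but led by coding length with 4925 on that scale. Members also have processed pseudogenes that can share reads with them, 1133 by name in the annotation with a median of 9.5 per member and 91 for *RPL23A*, and 0 of these are listed in the table. For *RPSA* (74 named pseudogenes), *RPL21* (66) and *RPL7* (61), the levels are uncertain to that extent. In addition, 28 members carry 60 annotated small nucleolar RNA genes inside their span, which guide the modification of RNA, and their median level was 706 FPKM against 521 FPKM for the 49 tested members without any.

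The proteins that bind MDM2 are the most direct tie between these genes and MDM4. *RPL5* (chr1:92831983-92841924, plus strand) was at 738, 716 and 747 FPKM in control cells and at 755, 746 and 721 FPKM in MDM4 cells. The groups overlapped. The log2 fold change, MDM4 against control on log2(FPKM + 0.1), was 0.01 (SE 0.046, 95% interval -0.09 to 0.12) with an adjusted p of 1.0 in limma.

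*RPL11* (chr1:23691742-23696835, plus strand), its partner on 5S rRNA, was at 492, 552 and 494 FPKM in control cells and at 509, 492 and 586 FPKM in MDM4 cells. Control replicate 2 and MDM4 replicate 3 were high and the others lay between 492 and 509 FPKM. Its log2 fold change was 0.04 (SE 0.081, 95% interval -0.15 to 0.23), again with an adjusted p of 1.0. The median log2 fold change of the 11 members known to bind MDM2, which include *RPL23*, *RPL26*, *RPS7* and *RPS27A* besides these, was -0.04. Of these 9 were lower and 2 higher, and 0 were called at an adjusted p under 0.05. *MDM2* itself, which is no member, was at 22.6, 25.6 and 19.8 FPKM in control cells and at 28.7, 30.7 and 23.2 FPKM in MDM4 cells, a log2 fold change of 0.28 (SE 0.14, adjusted p = 1.0 and 0.219 with the replicate block).

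No member passed the test in MDM4 against control. In limma 0 of 77 members had an adjusted p under 0.05, and 0 of all 12884 genes (0%) did. At an unadjusted p under 0.05 there was 1 member, *RPL39*, and 222 genes (1.72%). With a block for the replicate number these counts were 9 members (11.7%) and 1624 genes (12.6%), and the smallest adjusted p of a member was 0.292. limma with voom on recovered reads also called 0 members.

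The interval of the difference was narrow for most. For 67 of 77 members the 95% interval lay within 0.3 of 0 on the log2 scale. Among the other 10 were *RPL17*, *RPL21*, *RPL28*, *RPL35*, *RPL36A*, *RPL39*, *RPS10*, *RPS21* and *RPS28*. The median log2 fold change of the members was -0.04, with 59 lower and 18 higher, against -0.01 for all genes tested. For the 565 other genes at 100 FPKM or more it was -0.04, with 400 lower and 165 higher. Scaled by quantile normalization the members' median was 0.00. Between same-numbered libraries it was -0.09, 0.04 and -0.06 for replicates 1 to 3, against -0.02, 0.002 and -0.004 for all genes tested.

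**Figure D2:**
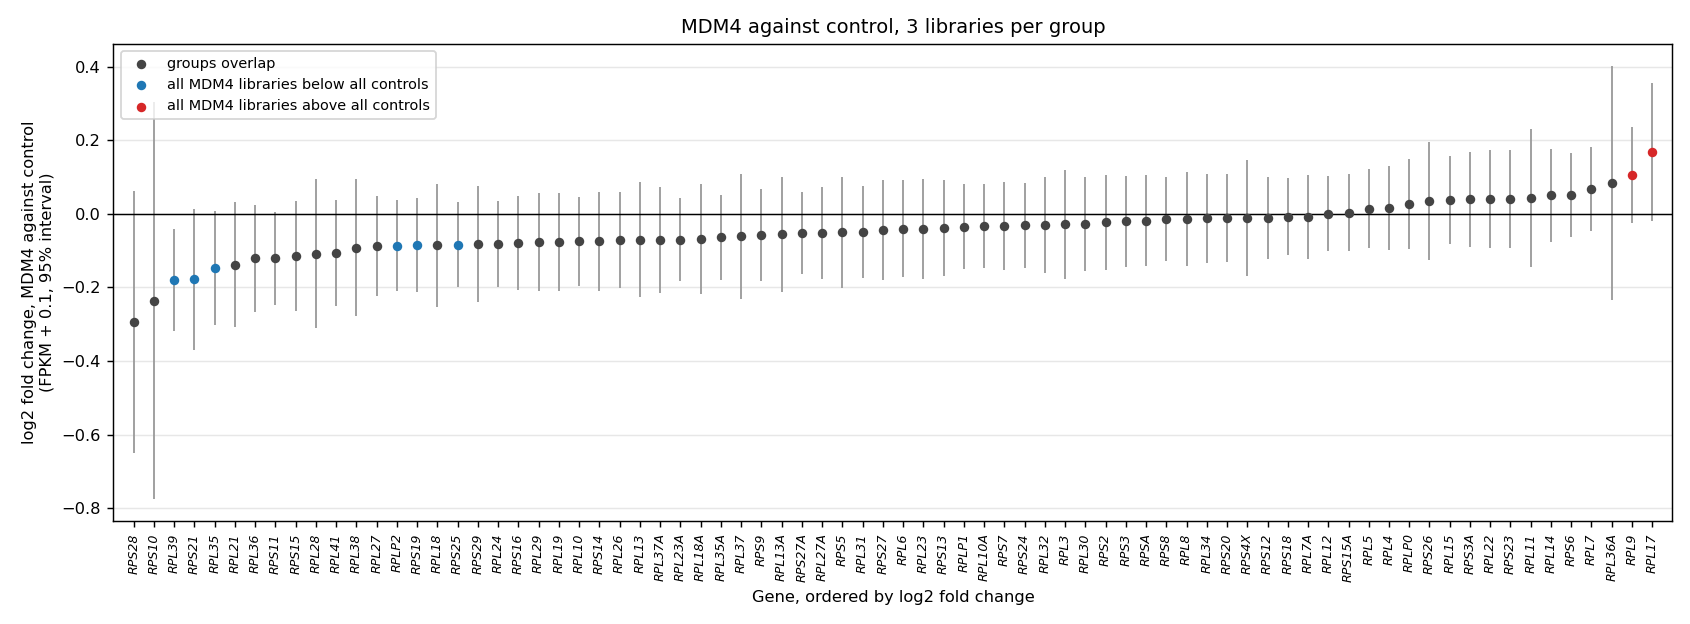
log2 fold change, MDM4 against control, of 76 members in order of size, with 95% intervals from limma. Points lie between -0.29 (*RPS28*) and 0.17 (*RPL17*), 63 of them within 0.1 of 0, and colour marks the 6 members whose MDM4 libraries all lay below the control libraries and the 2 whose MDM4 libraries all lay above.

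In 6 members all MDM4 libraries lay below all control libraries (7.79%, against 484 of all genes tested, 3.76%), and in 2 they lay above (2.60%, against 399 genes, 3.10%). Of the 565 other genes at 100 FPKM or more, 47 lay below and 3 above. The lower ones were *RPL39*, *RPS21*, *RPL35*, *RPLP2*, *RPS19* and *RPS25*, and the higher ones *RPL9* and *RPL17*. *RPL39*, a very small protein lining the tunnel through which the new chain leaves the ribosome, was at 330, 344 and 312 FPKM in control cells and at 279, 290 and 301 FPKM in MDM4 cells. The closest libraries of the groups were those of replicate 3. The log2 fold change was -0.18 (SE 0.059, unadjusted p = 0.0170 and adjusted p = 1.0 in limma).

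*RPS21*, of the small subunit, was at 325, 274 and 277 FPKM in control cells and at 241, 270 and 262 FPKM in MDM4 cells. Control replicate 1 was the highest and MDM4 replicate 1 the lowest of the 6 libraries, and the others lay between 262 and 277 FPKM. *RPL35*, at the tunnel exit, was at 632, 581 and 562 FPKM in control cells and at 501, 562 and 542 FPKM in MDM4 cells, where the highest MDM4 and lowest control library nearly met. Their log2 fold changes were -0.18 (SE 0.082) and -0.15 (SE 0.067).

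*RPLP2* and *RPS19* showed the same form, with control replicate 1 the highest of the 6 libraries. *RPLP2*, the partner of RPLP1 in the stalk, was at 1082, 981 and 987 FPKM in control cells and at 953, 948 and 968 FPKM in MDM4 cells. *RPS19*, needed for maturation of the small subunit and the gene most often mutated in Diamond-Blackfan anemia, was at 864, 783 and 781 FPKM in control cells and at 752, 776 and 759 FPKM in MDM4 cells. *RPS25* differed by a log2 fold change of -0.08 (SE 0.049), and the closest libraries of the groups were at 493 and 490 FPKM.

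*RPL9*, a protein near the base of the stalk, was at 252, 253 and 255 FPKM in control cells and at 282, 280 and 257 FPKM in MDM4 cells. MDM4 replicates 1 and 2 were high, while MDM4 replicate 3 lay beside the control. *RPL17* was at 19.6, 19.7 and 18.6 FPKM in control cells and at 20.7, 22.6 and 21.7 FPKM in MDM4 cells, with a log2 fold change of 0.17 (SE 0.080) from 576 to 719 reads per library.

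*RPS28*, the member with the most negative value, was at 107, 81.9 and 68.4 FPKM in control cells and at 71.9, 71.9 and 62.7 FPKM in MDM4 cells, a log2 fold change of -0.29 (SE 0.15). Control replicate 1 was the high library, and the groups overlapped. *RPS10* followed with -0.24 (SE 0.23), and *RPL21* came after *RPL39*, *RPS21* and *RPL35* with -0.14 (SE 0.073). At the upper end *RPL36A* was at 0.08 (SE 0.14), *RPL7* at 0.07 (SE 0.049) and *RPS6*, the substrate of the S6 kinases, at 0.05 (SE 0.049), all with an adjusted p of 1.0.

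**Figure D3:**
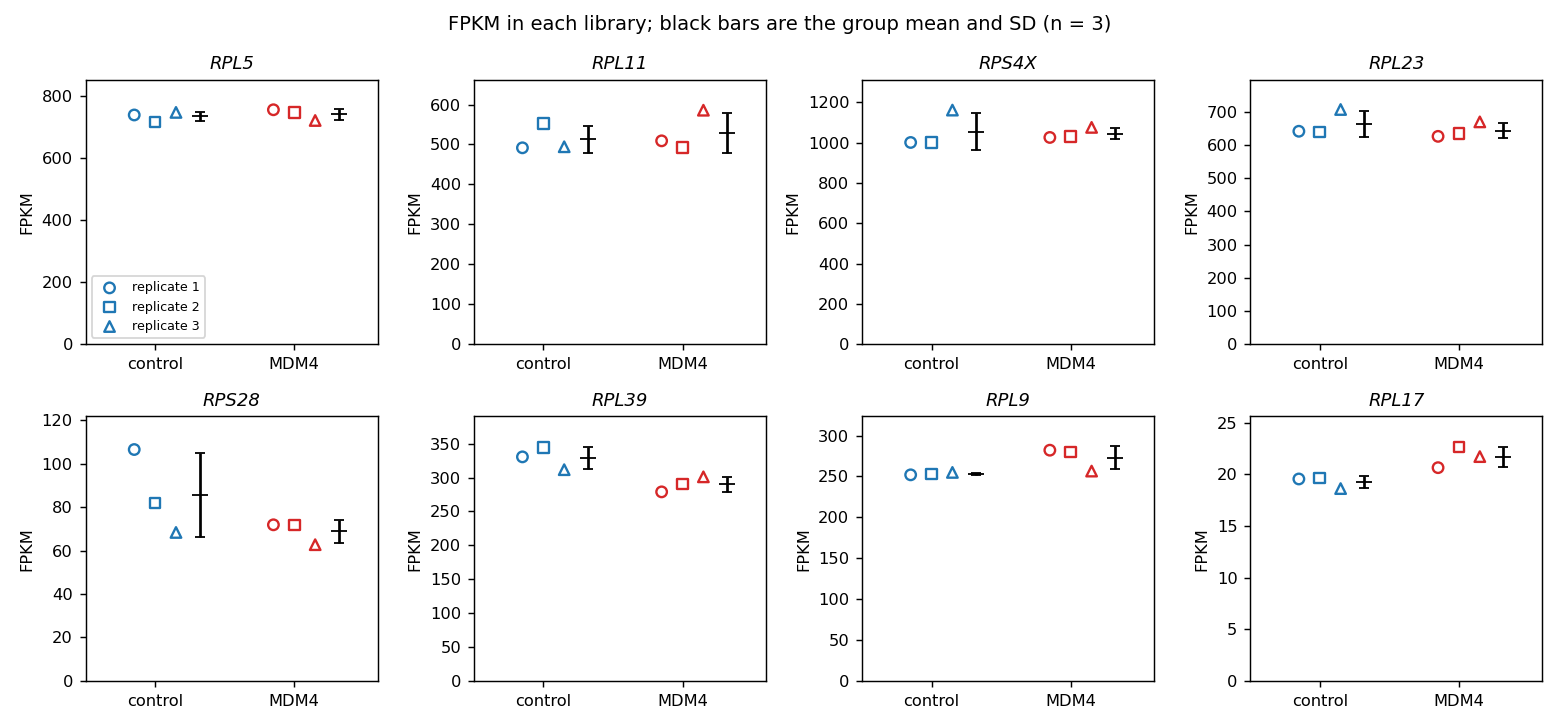
FPKM of *RPL5*, *RPL11*, *RPS4X*, *RPL23*, *RPS28*, *RPL39*, *RPL9* and *RPL17* in each library, with circles, squares and triangles for replicates 1 to 3 and black bars for the group mean and SD (n = 3), on axes that start at 0. *RPL39*, *RPL9* and *RPL17* are the genes here whose groups do not overlap, and the triangles of replicate 3 are the highest of their group in *RPS4X* and *RPL23* and the lowest in *RPS28*.

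Functional groups of members moved little. The stalk genes *RPLP0*, *RPLP1*, *RPLP2* and *RPL12* had a median log2 fold change of -0.02 and estimates of 0.03, -0.03, -0.09 and 0.00. *RPL12* was the steadiest of them, between 880 and 917 FPKM in all 6 libraries. The 19 genes known from Diamond-Blackfan anemia had a median of -0.05, with 13 lower and 6 higher. The 7 members around the tunnel exit had a median of -0.07, with 6 lower and 1 higher, and the 4 members on the X chromosome one of -0.04. None of these groups had a called member.

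Other single members of note were flat as well. *RPSA*, which also serves as a laminin receptor, was at 1118, 1018 and 1114 FPKM in control cells and at 1076, 1088 and 1043 FPKM in MDM4 cells. *RPS27A*, made as a fusion with ubiquitin, was at 542, 510 and 539 FPKM in control cells and at 510, 510 and 513 FPKM in MDM4 cells. *RPL22* was at 115, 119 and 112 FPKM in control cells and at 121, 120 and 115 FPKM in MDM4 cells. In each of the 3 the groups overlapped, and their log2 fold changes were -0.02, -0.05 and 0.04.

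Shorter members tended to have the lower values. This split was chosen after the values were seen. The 12 members with an implied length under 500 bases all had negative log2 fold changes, with a median of -0.09, and of the 65 longer members 47 did, with a median of -0.03. Spearman's rho between length and log2 fold change across the 77 members was 0.416, given as a description since members share libraries. Between same-numbered libraries the rho values were 0.404, 0.462 and -0.176 for replicates 1 to 3. The 80 genes outside the family with an implied length under 500 bases had a median of -0.13, with 64 of them lower. The part of gene length in the members' differences was not tested.

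**Figure D4:**
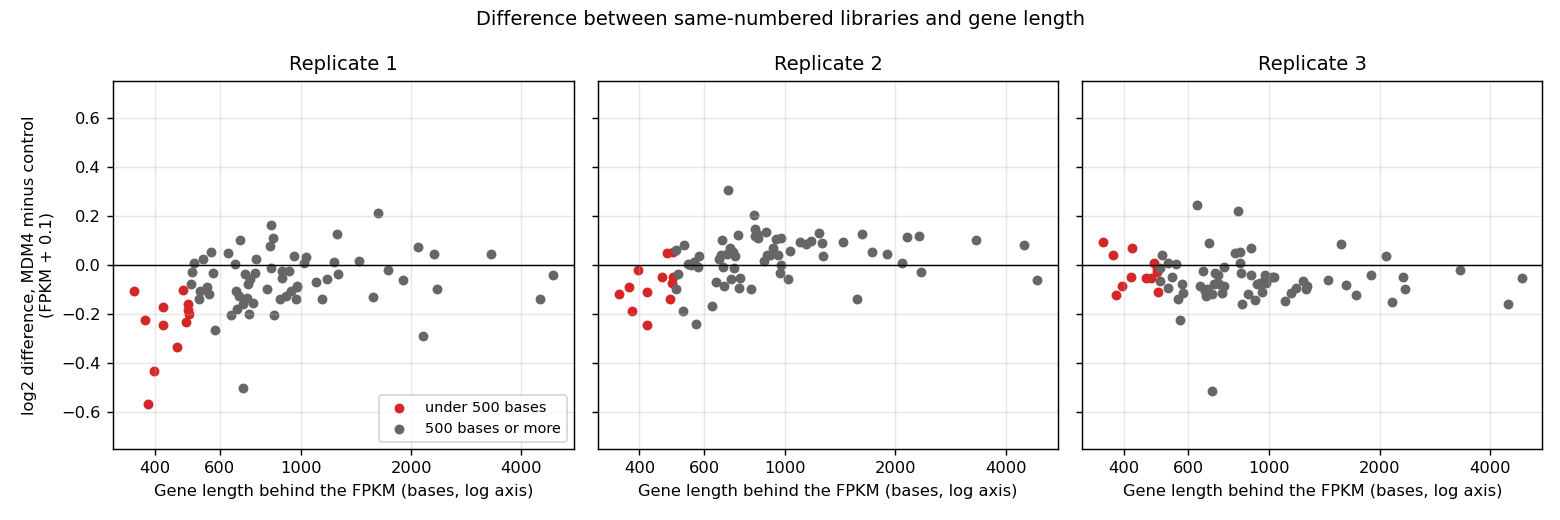
log2 difference between same-numbered MDM4 and control libraries for 76 members, against the gene length behind its FPKM (log axis), in 3 panels for replicates 1 to 3, with members under 500 bases in red. Short members lie low in replicates 1 and 2, with medians of -0.21 and -0.08 against -0.06 and 0.04 for longer ones, but not in replicate 3, with -0.04 against -0.07.

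Replicate 3 of both groups stood apart from replicates 1 and 2 across the transcriptome, and few ribosomal protein genes passed the test of that shift. The split was set with earlier results known, in which replicate 3 stood apart, so its adjusted p-values describe a difference already seen. Of all 12884 genes, 5685 (44.1%) were called in replicate 3 against replicates 1 and 2, 3808 higher (29.6%) and 1877 lower (14.6%). Of the members 3 of 77 (3.90%) were called, 2 higher and 1 lower. Their median log2 fold change was 0.01, against 0.09 for all genes tested. The change was within 0.1 of 0 for 67 members, while 26.0% of all genes were that close. Of the 565 other genes at 100 FPKM or more, 39.6% were called. The split of the members' calls turned with the scaling, from 2 higher and 1 lower to 5 and 1 under TPM scaling, 0 and 10 under median ratio scaling (median -0.08) and 9 and 3 under quantile normalization. The calls over all genes turned too, to 2624 higher and 2775 lower under median ratio scaling and 2674 and 2544 under quantile normalization. The labels give no batch, and no source used here says whether replicate 3 was handled apart from the others.

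*RPS4X*, the X-linked form of a small subunit protein, was at 1001, 1001 and 1162 FPKM in control cells and at 1026, 1030 and 1076 FPKM in MDM4 cells. Replicate 3 was the highest of each group. The log2 fold change, replicate 3 against replicates 1 and 2, was 0.14 (SE 0.046, adjusted p = 0.0285 in limma). *RPL23* rose as well, from 642, 639, 626 and 635 FPKM in replicates 1 and 2 of the control and MDM4 groups to 707 and 670 FPKM in replicate 3 (0.11, SE 0.041, adjusted p = 0.0431).

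*RPS28* was the only member called lower. It was at 68.4 and 62.7 FPKM in replicate 3 of control and MDM4, with a log2 fold change of -0.32 (SE 0.094, adjusted p = 0.0178 in limma). Within the groups the difference was -0.45 in the control and -0.20 in MDM4. All 3 calls ended without control replicate 3, when no member passed, with log2 fold changes of 0.07 for *RPS4X*, 0.09 for *RPL23* and -0.20 for *RPS28*. *RPL26*, *RPL36A*, *RPS14* and *RPL3* were just short of the threshold, with adjusted p of 0.0558, 0.0595, 0.0655 and 0.0677 and log2 fold changes of 0.11, -0.23, 0.11 and 0.12.

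The genes that build ribosomes behaved otherwise. Of 79 ribosome biogenesis genes 63 were called lower and 1, *POLR1D*, higher in replicate 3 (81%, against 44.1% of all genes). Their median log2 fold change was -0.39, -0.37 within the control and -0.39 within the MDM4 group. *PPAN*, *RRS1*, *BRIX1* and *NIP7*, all needed for the large subunit, fell the most. *RRS1*, which brings the 5S particle with RPL5 and RPL11 into the nascent subunit, was at 56.5, 55.2 and 28.2 FPKM in control cells and at 56.3, 57.5 and 29.7 FPKM in MDM4 cells, a log2 fold change of -0.96 (SE 0.053, adjusted p = 2.23e-06). Its partner *RPF2* fell by 0.45 on the log2 scale (SE 0.066, adjusted p = 0.000441). Over the scalings tried, the median of the list lay between -0.48 and -0.38, while that of the members lay between -0.08 and 0.02. No test of the difference between the lists was made.

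The list around the 5S particle and p53 held 14 tested genes, among them *RPL5*, *RPL11* and the transfected *MDM4*. Of these 9 (64.3%) were called lower in replicate 3 and 0 higher, against 14.6% and 29.6% of all genes. *MDM2* fell by 0.32 on the log2 scale (SE 0.070, adjusted p = 0.00450), whereas *RPL5* was at -0.01 (SE 0.044) and *RPL11* at 0.08 (SE 0.070), with adjusted p of 0.864 and 0.405. *MYC*, a transcription factor that drives ribosome production, was at 212, 195 and 117 FPKM in control cells and at 205, 213 and 113 FPKM in MDM4 cells, and fell by 0.84 (SE 0.053, adjusted p = 4.83e-06). Its antagonist *MXD1* rose by 0.73 (SE 0.11, adjusted p = 0.000498). Of 21 genes listed for MYC and mTORC1, 6 were called higher and 5 lower in replicate 3, with a median of 0.01. This share of 52.4% is near the 44.1% called over all genes.

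**Figure D5:**
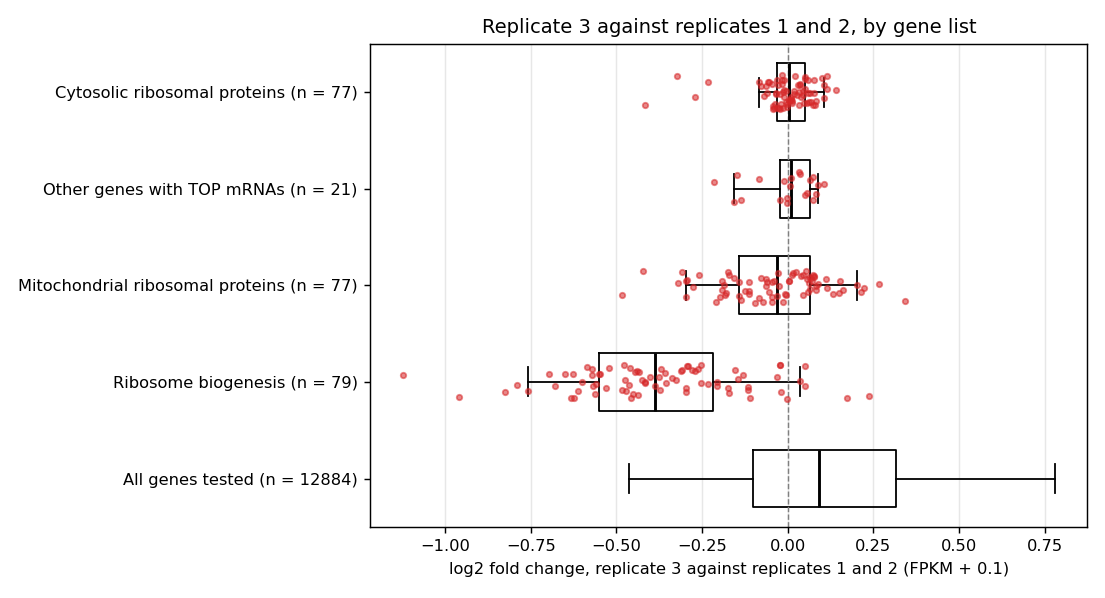
log2 fold change of replicate 3 against replicates 1 and 2 for 4 gene lists and all genes tested, with boxes for the quartiles and median, whiskers from the 5th to the 95th percentile and a point per listed gene. Cytosolic ribosomal protein genes gather at a median of 0.01 and ribosome biogenesis genes at -0.39, while all genes spread around 0.09.

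Other genes known for messages with a 5′ TOP motif, most of them translation factors, lay near the members. Of 21 tested, 3 were called lower in replicate 3 (*EIF4A2*, *EEF1D* and *EEF1B2*) and 0 higher, 14.3% against 44.1% of all genes. The median of the 21 was 0.01 in replicate 3 and 0.00 in MDM4 against control. The proteins of the mitochondrial ribosome, which share a role but no gene with the members, had a median of -0.03 in replicate 3. Of the 77 tested 5 were called higher and 15 lower (26%, against 44.1% of all genes). *MRPL15*, *MRPL54* and *MRPL32* fell by 0.49, 0.42 and 0.32, and *MRPL55* rose by 0.34. In MDM4 against control their median was -0.06, with 62 of 77 lower and 0 called. Of 13 genes listed as chaperones or importers of ribosomal proteins, *AAR2*, *HEATR3* and *BCCIP* were called lower in replicate 3 and *AAMP* higher. These are 30.8% of the list, against 44.1% of all genes.

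A few ribosomal proteins carry names that the rule does not take. *FAU*, which encodes a small subunit protein fused to a ubiquitin-like one, was at 404, 391 and 387 FPKM in control cells and at 353, 377 and 377 FPKM in MDM4 cells. The groups did not overlap, and the log2 fold change was -0.09 (adjusted p = 1.0). *RACK1*, a scaffold on the small subunit, was at 845 to 950 FPKM, and the groups overlapped.

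Paralogs outside the rule were less abundant than their partners, except *RPL36AL*. *RPL36AL* was at 86.5 to 96.2 FPKM, *RPL7L1* at 55.1 to 71.1, *RPL26L1* at 41.8 to 48.7, *RPL22L1* at 33.3 to 42.0 and *RPS27L*, a p53 target in other cells, at 19.4 to 23.5 FPKM. *RPL36AL* lay above *RPL36A* in every library. *RPL36A* overlaps *RPL36A-HNRNPH2*, and its implied length of 1621 bases was 2.35 times its median transcript length. The part of either in its low level was not tested. *RPL3L* was at 0.0594 to 0.165 FPKM, and *RPL10L*, *RPL39L* and *RPS4Y2* were listed at 0 throughout. In replicate 3 *RPL7L1* fell by 0.31 and *RPL22L1* by 0.27 (adjusted p = 0.00111 and 0.00521), and in MDM4 against control none of the 5 tested paralogs was called.

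The effect of MDM4 in replicate 3 was set against its effect in replicates 1 and 2. In limma 0 of 77 members had an adjusted p under 0.05 for this difference, against 25 of all genes (0.194%), and 2 members had an unadjusted p under 0.05, *RPL11* and *RPS3A*. limma with voom called 0 members. *RPL11* had a difference of 0.30 on the log2 scale (SE 0.11), since replicate 3 lay 0.23 above replicates 1 and 2 in the MDM4 group and 0.08 below them in the control. Without control replicate 1 that difference was 0.39, with 1 control library left for replicates 1 and 2.

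The members were steady from library to library. The SD of log2(FPKM + 0.1) over the 6 libraries had a median of 0.0602 over the members, 0.166 over all genes tested and 0.0928 over the 565 other genes at 100 FPKM or more. In 74 of 77 members it was below the median of all genes. Among the other 3 were *RPS10* and *RPS28*, and the SD was lowest for *RPS15A* (0.0178) and *RPL12* (0.0212).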

How the data were processed

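RNA-seq of 6 SW480 libraries was used, 3 control and 3 MDM4. The authors deposited FPKM values for 19225 genes. The aligner, annotation and counting are not given in the sources used here. Low FPKM values fall on whole steps, each worth a read, so reads were recovered for 17189 of 17189 genes above 0 (100%), within 0.002 reads. On simulated data 98.49% of 1982 genes came back. Gene lengths were implied by FPKM and reads.

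log2(FPKM + 0.1) was computed for 12884 genes (mean FPKM at least 0.5) and fitted with limma 3.58.1 (eBayes with trend, R 4.3.3), without a block, and p-values were Benjamini-Hochberg adjusted over all of them. Genes at an adjusted p under 0.05 were called, with no threshold on the fold change. On simulated data for MDM4 against control, 67% of 100 genes changed by 0.5 (log2) and 83% of 100 changed by 1 were found. There 4 unchanged genes were called. The simulated spread was that left after the replicate block, with no replicate effect added. These shares therefore do not give the power of the fit without a block on the real libraries. Replicate 3 against replicates 1 and 2 was fitted with the group as a term. Same-numbered libraries deviated together from their group means, with correlations of 0.458, 0.451 and 0.783 across genes for replicates 1 to 3. Across the members the correlations were 0.394, 0.284 and -0.133. Deviations cancel within a group, so a shift of replicate 3 in both groups by itself gives positive values for replicates 1 and 2. The values therefore do not settle whether the numbers pair the libraries.

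Positions are from GENCODE release 29 (GRCh38) and start windows from RefSeq (GRCh38.p14). Exact permutation tests went through every split of the libraries. Spearman's rho used scipy 1.17.1, and plots matplotlib 3.10.9. The members, the lists and the split of replicate 3 against replicates 1 and 2 were chosen with earlier results of these data known. Named members were those with a known role, the 6 highest and lowest by level, the 6 largest rises and falls in each comparison, those whose groups did not overlap and those called. Not all of the 36 so selected are described above. Other pseudocounts, filters, scalings, voom, the replicate block and each library left out were tried. Replicates 1 and 2 alone, replicate 3 as a term, and the block combined with other settings were added after seeing the data. Values of a few genes, 1 member among them, are not reported here.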

Additional observations from a re-analysis of the deposited data

How the results depend on the processing

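In MDM4 against control 0 members were called under every alternative run, with the replicate block, a threshold of 1 on the log2 fold change and each library left out included. Of all genes, 0.581% were called over replicates 1 and 2 alone, 0.225% with the block and voom and 0.164% without control replicate 3. A count of 0 members is thus close to the share over all genes. The members' median moved by less than its spread between replicates, and was -0.04 with the block. Over replicates 1 and 2 alone, 11 members (14.3%) and 1050 of 12746 genes (8.24%) had an unadjusted p under 0.05, and the smallest adjusted p of a member was 0.153. Members called in replicate 3 against replicates 1 and 2 numbered 1 without a filter (31.6% of all genes) and 6 with TPM scaling (44.4%). There were 10 with median ratio scaling (41.9%, members' median -0.084), 12 with quantile normalization (40.5%) and 0 with eBayes without trend (37.9%). Leaving out a library of replicates 1 and 2 gave 2 to 7 (36.1% to 49.9%), with 7 without control replicate 2. Log2 fold changes without control replicate 3, which leaves 1 library of replicate 3, are given above. A threshold of 1 on the log2 fold change as well left 0 members, and the share over all genes there is not given here. The change was within 0.3 of 0 for 75 members and for 62.9% of all genes. The cause of the differences between settings was not tested.

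For the effect of MDM4 in replicate 3, the log2 difference of *RPL11* was 0.39 without control replicate 1. That of *RPS28* was 0.44 without control replicate 2. Such a fit leaves 1 library for replicates 1 and 2 of that group. Calls changed with the library left out, among all genes as well, and are not counted here. Replicate 3 also has 1 library per group, which is assumed to vary like the others. The difference in the share of FPKM ranged from -0.195 to 0.0469 percentage points with each library left out, and turned positive without control replicate 3. Of 36 named members, 0 changed call in MDM4 against control, and in replicate 3 against replicates 1 and 2 there were 17 lost and 22 gained calls over 540 values and 0 reversals of a called value. Uncalled values changed sign 28 and 50 times. Depth limits *RPS10* most, with as few as 35 reads.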
